A study of Mus musculus with 4 samples.

Results

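The 10 genes described here, Cd68, Ctss, Csf1r, Adgre1, C1qa, C1qb, C1qc, Tyrobp, Mrc1 and Lgmn, are markers of resident macrophages and phagocytes, measured in the mouse adrenal gland. Every probe set that the platform annotation gives to exactly 1 of these genes was taken, which gave 14 probe sets of the 34945 that carry 1 gene, and 10 genes of 18193. Csf1r and C1qb each had 3 probe sets and every other member had 1. Male mice of 2 months gave the glands, and the RNA of whole glands went onto 2 arrays for the wild type and 2 for mice labelled V1a_KO, which lack the V1a vasopressin receptor. The labels name no strain, no further treatment and no pooling, do not say which part of the receptor gene was removed, and do not say that the arrays of a genotype came from separate animals, so a p-value reflects the spread of these samples alone, part or all of which may be technical. The comparison asks whether transcripts of these cells differ in the gland without the receptor.

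Resident macrophages lie between the steroid-producing cells and along the sinusoids of the adrenal gland, where they take up dead cells and debris. Their survival depends on the receptor Csf1r and its ligands, and their transcripts are set up by the transcription factor PU.1, encoded by Spi1. They are a major source of complement C1q, which is built from chains of 3 genes, and they carry lysosomal proteases such as cathepsin S and legumain. Some markers are shared: Mrc1 is also found on sinusoidal and lymphatic endothelium, and Lgmn and Ctss are also made by other cells. In whole-gland RNA, fewer macrophages and less RNA per macrophage cannot be told apart.

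Values are log2 expression units per probe set, so a difference of 1 is a 2-fold difference, and the lowest value of the arrays, 2.30, is a floor shared by undetected probe sets. Testing was limited to the 17228 of 45037 probe sets with 4 log2 units or more on 2 or more arrays, and all 14 member probe sets were among them. Of the markers of the labelled tissue, 9 of 9 genes of the cortex and 7 of 7 on the array of the medulla passed the filter. Avpr1a, the targeted gene, read 2.31 to 2.60 on its 2 probe sets over all 4 arrays, near the floor in both genotypes, so it does not check the labels. Wild-type array 1 stood apart, with 363 probe sets (2.11%) lying at least 2 log2 units below the other 3 arrays, against 1 to 7 such probe sets for each other array. It also carried liver transcripts, with Alb at 8.86 against 2.42 to 2.43 elsewhere. Serpina1b, also of the liver, read 7.97 on wild-type array 1 and 7.20 on wild-type array 2.

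No macrophage marker passed the test between the genotypes. Of the 14 member probe sets 0 passed an adjusted p of 0.05 in limma, where 0% of all tested probe sets did, and 0 passed an unadjusted p of 0.05, where 5.14% did, 2.13% higher and 3.01% lower in the knockout. The smallest adjusted p among the members was 0.794. Cd68, Ctss and 1 probe set of C1qb had the highest differences. Tyrobp, and Csf1r on 2 of its 3 probe sets, lay lower in the knockout in their means. Lgmn and Mrc1 lay close to no difference, at 0.10 and -0.02. With 1 probe set per gene, 6 genes were higher and 4 lower in the knockout, with a median difference of 0.12, beside -0.05 over all 10110 genes tested. The arrays of the genotypes did not overlap in 4 of the 10 genes, which is 3 higher (Cd68, Ctss, C1qb) and 1 lower (Csf1r), and over all genes tested the share was 37.7%, with 17.1% higher. Counted as probe sets, 6 of the 14 did not overlap, 4 higher and 2 lower, beside 37.4% of all probe sets, 17.4% higher and 20% lower. The members' share of non-overlapping genes was thus near the background.

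**Figure D1:**
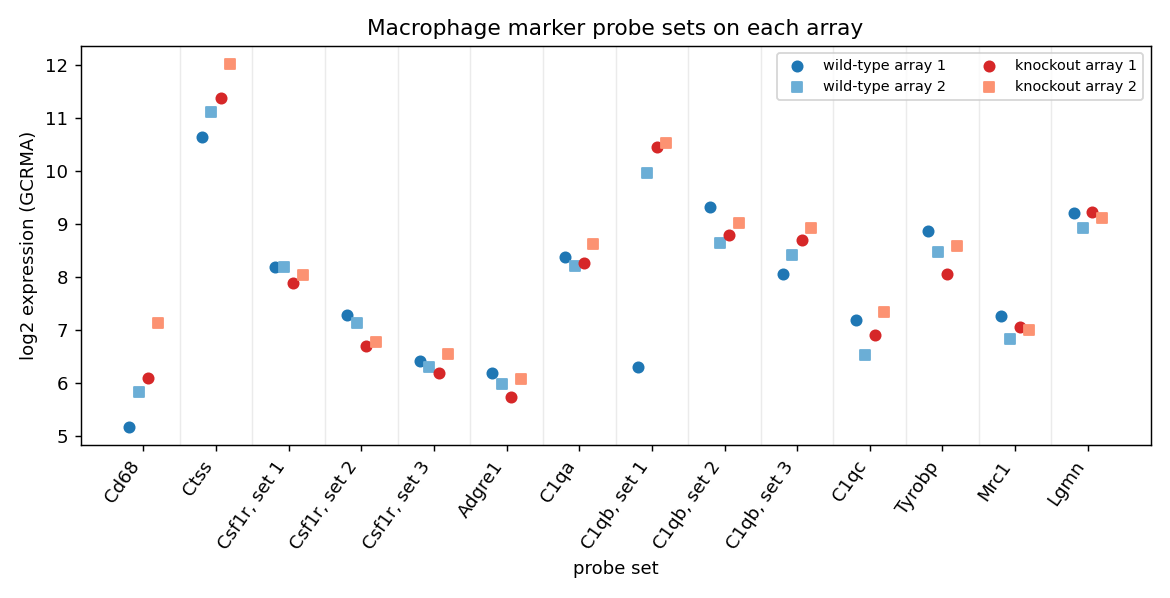
Each point is the log2 expression value of a member probe set (x axis) on 1 array, coloured by genotype, with circles for array 1 and squares for array 2. Cd68 and Ctss order the arrays alike, from wild-type array 1 at 5.17 and 10.64 to knockout array 2 at 7.14 and 12.02, and wild-type array 1 stands far below the others only on the first probe set of C1qb, at 6.31.

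Cd68, a heavily glycosylated lysosomal membrane protein of phagocytes, was read by probe set 1449164_at. The wild-type arrays gave 5.17 and 5.84, and the knockout arrays gave 6.10 and 7.14. Both knockout arrays lay above both wild-type arrays, and knockout array 2 stood 1.05 above knockout array 1, a gap close to the difference between the genotypes. That difference was 1.11 (SE 0.48, n = 2 per group), or 2.16-fold, with a 95% interval of -0.26 to 2.48 and a limma p of 0.0858 (adjusted p = 0.794). The size of the difference depended on the knockout array kept: it was 0.59 without knockout array 2 and 1.64 without knockout array 1. Leaving out wild-type array 1, the lowest of the 4, gave 0.78.

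Ctss encodes cathepsin S, a cysteine protease that trims the invariant chain of class II molecules in endosomes. Its probe set, 1448591_at, gave 10.64 and 11.12 on the wild-type and 11.39 and 12.02 on the knockout arrays. The order of the arrays was that of Cd68, from wild-type array 1 as the lowest to knockout array 2 as the highest, an order found in 5.99% of all genes tested. The difference was 0.83 (SE 0.33, n = 2 per group), or 1.77-fold, with a 95% interval of -0.11 to 1.77 and a limma p of 0.0706 (adjusted p = 0.794). It was 0.51 without knockout array 2 and 0.58 without wild-type array 1. Lgmn, which encodes legumain, an asparaginyl endopeptidase of the same compartment, gave 9.22 and 8.93 on the wild-type and 9.23 and 9.11 on the knockout arrays. Its arrays overlapped, and its difference of 0.10 (SE 0.19, 95% interval -0.45 to 0.64) lies within a 2-fold difference in either direction.

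The promoters of Cd68, Ctss, C1qb and C1qc are shown. With 1 probe set per gene, the first 3 had non-overlapping higher values in the knockout, and C1qc is the neighbour of C1qb in the C1q cluster. On the plain probe set of C1qb the genotypes overlapped. Each runs from 250 bases before the annotated start to 50 bases after it, 5′ to 3′ on the gene's strand, from RefSeq on GRCm38.p6. Capitals mark GAGGAA, the core recognised by PU.1, on either strand (TTCCTC is the same core on the other strand). The windows are chr11:69666121-69666420 on the minus strand for Cd68, chr3:95526536-95526835 on the plus strand for Ctss, chr4:136886151-136886450 on the minus strand for C1qb and chr4:136892865-136893164 on the minus strand for C1qc.
Cd68: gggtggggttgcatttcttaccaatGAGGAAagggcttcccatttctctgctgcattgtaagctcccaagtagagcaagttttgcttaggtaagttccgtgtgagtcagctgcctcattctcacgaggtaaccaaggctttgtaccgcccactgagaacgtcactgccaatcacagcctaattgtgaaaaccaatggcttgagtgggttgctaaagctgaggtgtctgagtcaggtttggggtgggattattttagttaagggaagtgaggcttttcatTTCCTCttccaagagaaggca
Ctss: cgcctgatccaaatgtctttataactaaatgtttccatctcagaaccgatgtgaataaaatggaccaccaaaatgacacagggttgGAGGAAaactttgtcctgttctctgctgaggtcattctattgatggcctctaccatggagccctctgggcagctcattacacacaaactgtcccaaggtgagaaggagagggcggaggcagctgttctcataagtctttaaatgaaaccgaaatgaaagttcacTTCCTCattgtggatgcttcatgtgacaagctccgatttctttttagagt
C1qb: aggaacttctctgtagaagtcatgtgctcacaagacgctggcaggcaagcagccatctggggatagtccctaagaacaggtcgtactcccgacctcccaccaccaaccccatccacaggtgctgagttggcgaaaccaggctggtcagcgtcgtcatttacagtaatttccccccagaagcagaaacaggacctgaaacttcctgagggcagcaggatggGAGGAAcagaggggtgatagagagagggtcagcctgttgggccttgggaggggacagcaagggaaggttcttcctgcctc
C1qc: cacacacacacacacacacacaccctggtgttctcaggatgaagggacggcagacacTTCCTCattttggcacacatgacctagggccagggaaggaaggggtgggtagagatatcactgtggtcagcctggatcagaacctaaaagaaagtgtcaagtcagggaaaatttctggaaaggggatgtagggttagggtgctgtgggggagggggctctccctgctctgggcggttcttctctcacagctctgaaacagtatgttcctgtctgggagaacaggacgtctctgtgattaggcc
The core occurred 2 times in the windows of Cd68 and Ctss, 1 time in those of C1qb and C1qc and 3 times in that of Mrc1, and it was not among the letters of either window of Lgmn. The 6 members with a promoter sequence had 7 promoters, of which 5 (71.4%) held the core. Among promoters of the same length, 26.0% of the 10642 of tested genes and 28.3% of all 32851 held it. The E-box CACGTG, searched on both strands and overlapping no PU.1 core, was in 1 of the 7 member promoters, 1 of the 2 of Lgmn, beside 1067 of the 10642 promoters of tested genes and 7.15% of all promoters. A match is a description of the letters and not a bound site.

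C1q starts the classical complement pathway when it binds antibody complexes, dying cells or some microbial surfaces, and C1qa, C1qc and C1qb lie side by side on chromosome 4. C1qa, the A chain, gave 8.38 and 8.21 on the wild-type and 8.26 and 8.62 on the knockout arrays (1417381_at). C1qc, the C chain, gave 7.19 and 6.53 on the wild-type and 6.91 and 7.34 on the knockout arrays (1449401_at). Both genes put the arrays in 1 order, with wild-type array 2 lowest, then knockout array 1, wild-type array 1 and knockout array 2, an order shared by 2.11% of all genes tested. The genotypes overlapped in each. The differences were 0.15 (SE 0.21, 95% interval -0.45 to 0.76) for C1qa and 0.26 (SE 0.33, 95% interval -0.67 to 1.20) for C1qc.

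C1qb, the B chain, had 3 probe sets that did not give 1 answer. The plain probe set 1417063_at gave 9.33 and 8.64 on the wild-type and 8.81 and 9.02 on the knockout arrays, which differ by -0.08 (SE 0.31). The probe set 1434366_x_at gave 8.05 and 8.41 on the wild-type and 8.70 and 8.93 on the knockout arrays, which differ by 0.58 (SE 0.22, 95% interval -0.05 to 1.21). The brightest, 1437726_x_at, gave 6.31 and 9.97 on the wild-type and 10.46 and 10.54 on the knockout arrays, which differ by 2.36 (SE 1.35, 95% interval -1.49 to 6.21). The suffix _x_at marks probe sets some of whose probes can also match other transcripts. Wild-type array 1 was the highest array on the plain probe set and the lowest on the other two, and on the brightest it lay 3.66 below wild-type array 2. Without wild-type array 1 the brightest probe set differed by 0.53, and with it but not wild-type array 2 by 4.19. Each of these fits left 1 wild-type array, so the spread of the wild type was not measured. The range of 2.44 between the differences of the 3 probe sets was larger than that of 99.0% of the 3861 genes with more than 1 tested probe set, whose median range was 0.40. A direction for C1qb therefore depends on the probe set.

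**Figure D2:**
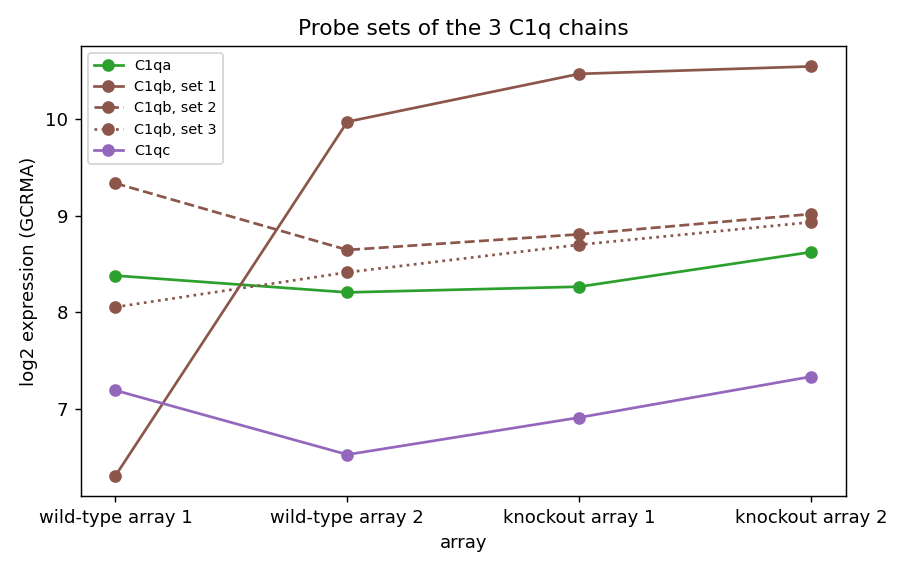
The log2 expression value (y axis) of each probe set of C1qa, C1qb and C1qc is joined across the 4 arrays (x axis), where lines join values of 1 probe set and carry no order of the arrays. C1qa, C1qc and the second probe set of C1qb are lowest on wild-type array 2, at 8.21, 6.53 and 8.64, while the first and last probe sets of C1qb are lowest on wild-type array 1, at 6.31 and 8.05.

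Csf1r, the receptor tyrosine kinase for Csf1 and Il34, lay lower in the knockout on 2 of its 3 probe sets. Probe set 1419872_at gave 8.20 and 8.20 on the wild-type and 7.90 and 8.05 on the knockout arrays, which differ by -0.22 (SE 0.16). Probe set 1419873_s_at gave 7.29 and 7.13 on the wild-type and 6.71 and 6.78 on the knockout arrays, which differ by -0.47 (SE 0.17, 95% interval -0.94 to 0.01), with the smallest p of all member probe sets (unadjusted limma p of 0.0526, adjusted p = 0.794). On both, the 2 knockout arrays lay below the 2 wild-type arrays, as on 20% of all probe sets tested. Probe set 1423593_a_at gave 6.41 and 6.30 on the wild-type and 6.18 and 6.55 on the knockout arrays, which differ by 0.01 (SE 0.21), with overlapping arrays. Over the 3 probe sets the differences spanned 0.47.

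Adgre1 encodes F4/80, the adhesion G protein-coupled receptor used to identify mouse macrophages, and Tyrobp encodes the adaptor DAP12, which passes signals of activating receptors to the kinase Syk. Adgre1 gave 6.19 and 5.98 on the wild-type and 5.75 and 6.07 on the knockout arrays (1451161_a_at). Tyrobp gave 8.86 and 8.48 on the wild-type and 8.05 and 8.60 on the knockout arrays (1450792_at). In both genes knockout array 1 was the lowest and wild-type array 1 the highest, and the genotypes overlapped. The differences were -0.17 (SE 0.21, 95% interval -0.77 to 0.42) for Adgre1 and -0.35 (SE 0.29, 95% interval -1.17 to 0.47) for Tyrobp. Mrc1, the mannose receptor, gave 7.27 and 6.84 on the wild-type and 7.06 and 7.01 on the knockout arrays (1450430_at), so that both knockout arrays fell between the wild-type arrays. Its difference was -0.02 (SE 0.22, 95% interval -0.65 to 0.62).

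**Figure D3:**
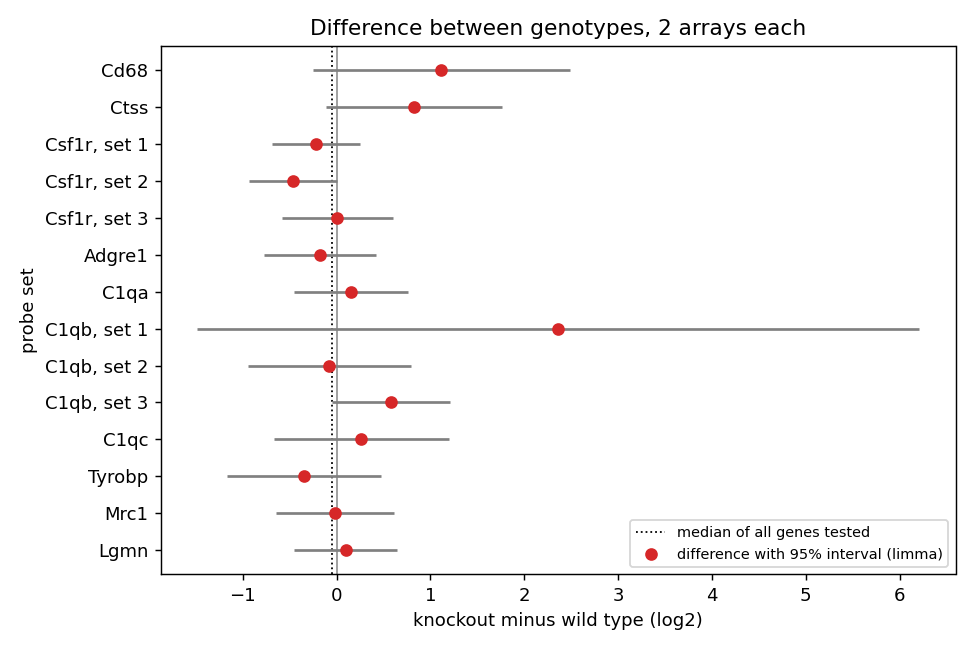
Each point is the difference between genotypes, knockout minus wild type in log2 units (x axis), of a member probe set (y axis), and the bar is its 95% interval from limma with 2 arrays per genotype. All 14 intervals include 0, and the first probe set of C1qb has the widest, from -1.49 to 6.21.

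The members also differed between the 2 knockout arrays. Knockout array 2 read higher than knockout array 1 in 12 of the 14 probe sets and in 8 of the 10 genes, while 51.6% of all genes tested did. The exceptions were Mrc1 and Lgmn, at -0.05 and -0.12. The median over the 10 genes was 0.34 between the knockout arrays, beside 0.01 over all genes. Other lists shared this direction, with 9 of 11 pan-leukocyte genes (median 0.35) and 6 of 7 cytokine and activation genes (median 0.59). So did 7 of 7 class II antigen presentation genes (median 0.08) and 8 of 8 capsule and fibroblast genes (median 0.12). Among cortex genes 1 of 9 did, and among medulla genes 0 of 7. Knockout array 2 was the highest of the 4 arrays in 5 of the 10 genes, against 17.2% of all genes. In wild type, array 1 was above array 2 in 7 of the 10 genes, where 63.6% of all genes were. Without C1qb, the mean over the other 9 genes was 7.90 and 7.79 for the wild-type arrays and 7.85 and 8.22 for the knockout arrays, so that only knockout array 2 stood above the other arrays, and with C1qb it was 7.74, 8.01, 8.11 and 8.45.

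Other macrophage markers came from a list of 19 genes. Of the 11 measured, 10 read higher on knockout array 2 than on knockout array 1, with a median of 0.35, and Mertk, which takes up dead cells, was the exception. Between the genotypes 6 lay higher and 5 lower (median 0.11), and 0 passed an unadjusted p of 0.05 in limma (5.06% of all genes did). Pf4, a chemokine also made by platelets, differed by -0.75 (SE 0.40), Ms4a7 by 0.78 (SE 0.57) and Mpeg1, which encodes the pore-forming perforin-2, by 0.40 (SE 0.36). The other 8 were below the filter, among them Cd163, Siglec1, Timd4 and Folr2, which mark subsets of resident macrophages. Cd163 read 2.44 on all 4 arrays and Itgam 2.33 to 2.36.

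Genes that sustain macrophages or set their identity gave no call either. Of 12 ligand and transcription factor genes, 6 were measured, with 1 higher and 5 lower, a median of -0.17 and 0 at an unadjusted p under 0.05 in limma. Maf, a transcription factor of mature macrophages, read 8.28 and 8.82 on the wild-type and 9.35 and 9.14 on the knockout arrays, which differ by 0.70 (SE 0.26, unadjusted limma p of 0.0611). Batf3 and Cebpb differed by -0.95 (SE 0.54) and -0.52 (SE 0.35). Csf1, a ligand of Csf1r, differed by -0.11 (SE 0.38), while Il34, the other ligand, was below the filter. Spi1, which encodes PU.1, read 3.23 to 3.25 on all 4 arrays, below the filter.

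Among the partners of C1q, the regulators and receptors of complement, 2 of 12 measured genes passed an unadjusted p of 0.05 in limma (5.06% of all genes did), both lower in the knockout, and 0 passed when adjusted over all probe sets. Calr, a chaperone that can bind C1q at the cell surface, read 12.88 and 12.76 on the wild-type and 12.13 and 12.16 on the knockout arrays, which differ by -0.68 (SE 0.16, unadjusted limma p of 0.0157). Cd59a, which blocks the membrane attack complex, differed by -0.86 (SE 0.26, unadjusted limma p of 0.0344). Serping1, the C1 inhibitor, differed by -0.83 (SE 0.30, unadjusted limma p of 0.0565). The proteases that C1q activates lay close to no difference, C1ra at -0.0045 (SE 0.43) and C1s1 at 0.01 (SE 0.16). The list median was 0.06, with 7 genes higher and 5 lower.

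Of a list of 16 genes related to Tyrobp signalling, inhibitors included, 14 were on the array and 5 were measured. Sirpa, an inhibitory receptor on phagocytes, read 7.65 and 7.35 on the wild-type and 8.07 and 8.03 on the knockout arrays, which differ by 0.54 (SE 0.19, unadjusted limma p of 0.0501). Inpp5d and Ptpn6, phosphatases that dampen such signals, differed by 0.24 (SE 0.20) and -0.10 (SE 0.17). Trem2, a receptor that signals through Tyrobp, stayed between 2.49 and 3.88 on its 2 probe sets, below the filter. The list median was 0.02.

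Lysosomal genes, which most cells express, did not share the direction of Cd68 and Ctss. Of 21 measured, 10 lay higher and 11 lower. Their median was -0.02, and 1 passed an unadjusted p of 0.05 in limma (5.06% of all genes did). That gene was Npc1, which exports cholesterol from lysosomes, at 0.84 (SE 0.19, unadjusted limma p of 0.0126). Laptm5, a lysosomal membrane protein of leukocytes, read 7.01 and 8.45 on the wild-type and 9.04 and 9.50 on the knockout arrays. Its difference was 1.54 (SE 0.57, unadjusted limma p of 0.0585). This is the order of arrays of Cd68 and Ctss, and also of the _x_at probe sets of C1qb. The probe set of Laptm5 carries the same _x_at suffix, so some of its probes can also match other transcripts. On it wild-type array 1, the array that stood apart, lay 1.43 below wild-type array 2. Tfeb, a transcription factor of lysosomal genes, differed by -0.68 (SE 0.28). Of 6 measured mannose and scavenger receptors 3 lay higher and 3 lower, the median being -0.08, with Mrc2, a collagen receptor of fibroblasts related to Mrc1, at -1.47 (SE 0.57), Scarb1 at -0.21 and Colec12 at -0.24.

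Cytokine and activation genes were mostly undetected, with 12 of 19 genes on the array below the filter, among them Il1b, Tnf, Il6, Nos2 and Arg1. Of the 7 measured, 1 passed an unadjusted p of 0.05 in limma (5.06% of all genes did). That gene was Ccl9, a chemokine, at -0.86 (SE 0.27, unadjusted limma p of 0.0386). Apoe and Retnla differed by 0.91 (SE 0.37) and -1.09 (SE 0.87). Class II antigen presentation had 6 of 7 measured genes lower, where 5660 of all 10110 genes tested were, with a median of -0.25. None had an unadjusted p under 0.05 in limma, with Ifi30 at -0.50 (SE 0.20), H2-Aa at -0.42 (SE 0.26) and H2-Eb1 at -0.24 (SE 0.23). In these 7 genes wild-type array 1 was above wild-type array 2. In H2-Ab1, Cd74 and H2-DMa both knockout arrays lay above wild-type array 2, and in Ifi30 and H2-Aa below it. In H2-Eb1 and Cd83 they lay on either side of it. Pan-leukocyte genes had 4 of 11 higher and 7 lower, a median of -0.17 and 0 at an unadjusted p under 0.05, with Laptm5 as above, Coro1a at -0.28 (SE 0.17) and Arhgdib at -0.36 (SE 0.23).

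**Figure D4:**
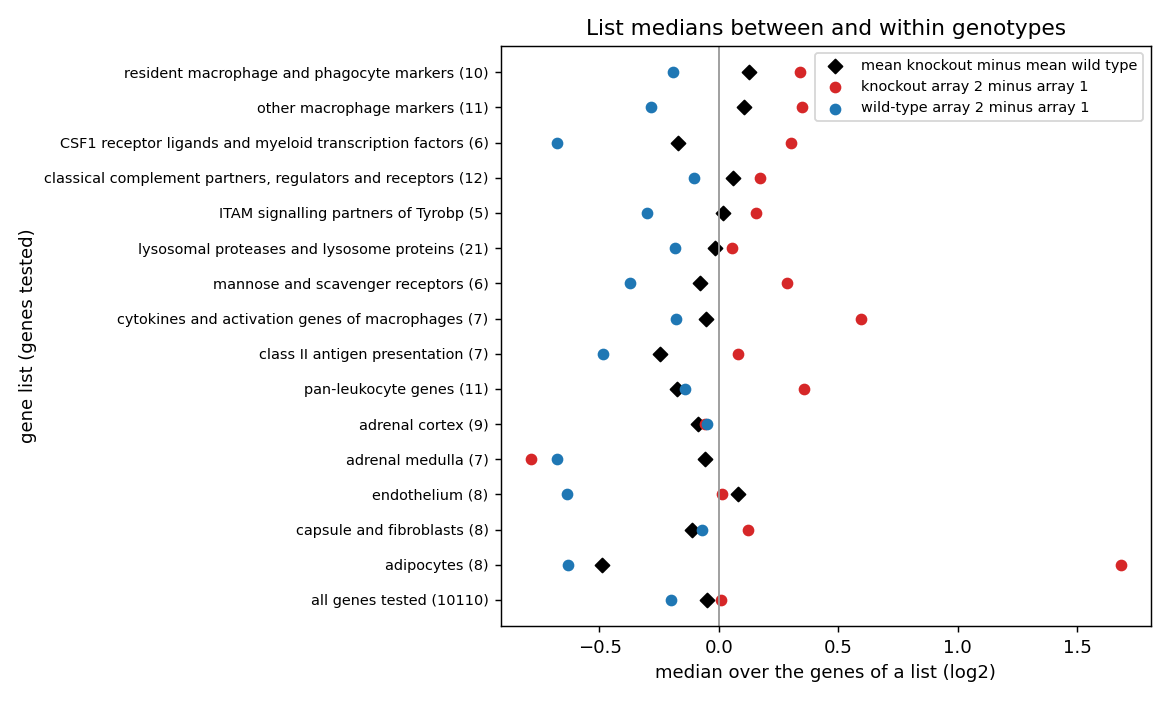
For each gene list with at least 5 measured genes (y axis, number of genes in brackets), points give the median in log2 units (x axis) of the difference between genotypes (diamonds), between the knockout arrays (red) and between the wild-type arrays (blue). The macrophage markers lie at 0.12 between genotypes and 0.34 between the knockout arrays, and the adipocytes reach 1.68 between the knockout arrays.

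Markers of other tissues also differed between arrays of 1 genotype. All 8 measured adipocyte genes were higher on knockout array 2 than on knockout array 1, by 0.71 to 3.11, and on wild-type array 1 than on wild-type array 2, and their mean was 8.51 and 7.45 on the wild-type and 5.77 and 7.52 on the knockout arrays. Slc2a4, Ucp1 and Cidea differed between the genotypes by -1.56 (SE 0.30), -4.29 (SE 1.54) and -3.57 (SE 1.48). All 7 medulla genes ran the other way in the knockout, with a median of -0.79 for array 2 minus array 1, and their mean was 12.23 and 11.38 on the wild-type and 12.04 and 11.23 on the knockout arrays, with a median of -0.06 between the genotypes. Of the medulla genes 2 lay higher and 5 lower in the knockout, with Pnmt at -0.77, Dbh at -0.30 and Slc18a1 at -0.13 as those of smallest p. Cortex genes had means from 12.57 to 12.69 on the 4 arrays, with 4 of 9 higher and 5 lower in the knockout, a median of -0.09, and Nr5a1 at -0.37, Scarb1 at -0.21 and Hsd3b1 at -0.12 as the genes of smallest p. The part of adipose and medullary tissue in the macrophage values was not tested.

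Markers of other immune cells were mostly below the filter. None of the 8 neutrophil genes on the array passed the filter, with S100a8 at 2.70 to 2.71 and S100a9 at 2.50 to 3.09, and none of the 7 mast cell genes did. Of the T and NK cell genes only Thy1, also made by other cells, was measured, at -0.99 (SE 0.62), while Cd3d read 2.31 and Cd4 2.30 to 2.33 on all arrays. Ighm and Jchain were the B and plasma cell genes measured, with differences of 2.10 (SE 1.07) and -0.61 (SE 0.59). Ighm read 8.85 and 5.98 on the wild-type and 9.65 and 9.39 on the knockout arrays, so wild-type array 2 stood far below the others. Cd79a read 2.30 on all 4 arrays. Of the dendritic cell genes, Zbtb46 was measured, at 0.52 (SE 0.32). Endothelial genes, a possible further source of Mrc1, lay higher in 6 and lower in 2 of 8, with a median of 0.08, and with Eng at -0.50, Kdr at -0.36 and Tek at 0.20. Capsule and fibroblast genes lay higher in 4 and lower in 4 of 8, with a median of -0.11. Of these, Mmp2 at -2.32 was the 1 gene with an unadjusted limma p under 0.05 (5.06% of all genes had one). Dcn had means of 10.10 and 9.10 in wild type and knockout. Lum differed by -0.36, and Pdgfrb, chosen after its values were seen, by 0.89 (SE 0.45). Pdgfrb read 7.84 and 8.99 on the wild-type and 9.27 and 9.34 on the knockout arrays, so wild-type array 1 stood far below the others. Of the liver, kidney and blood list, Serpina1b was read by an _x_at probe set. Serpina1b stood at the floor of 2.30 on both knockout arrays, against 7.97 and 7.20 in wild type. The size of its difference is therefore unknown. Aqp1 and Alas2 differed by -0.83 (SE 0.49) and -2.18 (SE 1.70), and the genotypes overlapped in both. Alas2 gave 9.46 and 4.87 in wild type, beside 4.67 and 5.30 in the knockout, so its difference rests on wild-type array 1.

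The 5 genes outside the lists whose values followed the mean profile of the members most closely were Atrnl1, Eif5b, Tiam1, Kdm4a and Sipa1l1. Their root mean square distances from it were 0.02 to 0.04 log2 units over the 4 arrays, among 9969 genes ranked. The members themselves had a median distance of 0.34 from their own mean, whose value on wild-type array 1 includes the 6.31 of C1qb.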

How the data were processed

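Each deposited value is the log2 expression of a probe set on the Mouse Genome 430 2.0 array, and per the labels' protocols the authors computed it with GCRMA in Bioconductor 3.14. GCRMA corrects for background by probe sequence, normalizes the arrays to each other and combines the probes of a set, so differences near the floor are compressed. The log2 scale was inferred from the range of the values, 2.30 to 14.9. The GCRMA version is not given in the sources used here.

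After removal of 64 control probe sets, limma 3.58.1 (R 4.3.3, eBayes on a fit with genotype as the 1 factor) compared the genotypes, with Benjamini-Hochberg adjustment over 17228 probe sets. The fit had 3.73 total degrees of freedom, and each SE is the moderated one. The number of arrays limits the precision. Where 1 value per gene is given, it comes from its brightest tested probe set by the mean of the 4 arrays. Gene names are those of the platform annotation, and 34741 probe sets were matched by gene ID to RefSeq on GRCm38.p6.

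The text names all members, the 3 measured genes of smallest p in each of the other 20 lists, defining markers of immune cells at the floor, and the 5 genes most like the members. Other names (Mertk, Csf1, Cd163, Siglec1, Timd4, Folr2, Itgam, Il34, Spi1, C1ra, C1s1, Trem2, Alb, Avpr1a, undetected cytokines) were chosen after their values were seen. The members and lists were chosen with earlier results of these data known, so no test over a list was made. Alternatives changed the filter (none, or 6 log2 units), the normalization (quantile, or centred medians), the variance model (trend and robust), the probe sets (plain ones, or a mean over those of a gene), the design (replicate number as a block) and the arrays (each left out, where the lone array of a genotype is assumed to vary like the others). The scripts were tested on simulated data.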

Additional observations from a re-analysis of the deposited data

How the results depend on the processing

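The number of arrays, 2 per genotype, limits the precision. Of 109 tested values of a member gene under an alternative, 95 kept their direction and their side of an unadjusted p of 0.05, 5 passed it and 9 turned. The mean over the probe sets of a gene, which was given no test, was 0.96 for C1qb and -0.23 for Csf1r. Mrc1 turned with quantile normalization (0.0098), median centring (0.0075), and when an array was left out, which gave -0.23 to 0.20. C1qb turned with plain probe sets (-0.078). With single arrays left out, values ran from -0.18 to 4.19 for C1qb, from -0.028 to 0.33 for C1qa, from -0.069 to 0.59 for C1qc and from -0.046 to 0.24 for Lgmn. The negative values came without knockout array 2 for C1qa and C1qb and without wild-type array 2 for C1qc and Lgmn. Mrc1 was above 0 without wild-type array 1 and without knockout array 2. For C1qb another probe set then stood for the gene, and for the others the cause was not tested.

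Member probe sets at an unadjusted p under 0.05 in limma numbered 1 without a filter (Csf1r, beside 3.43% of all probe sets) and 0 to 3 with single arrays left out. Without wild-type array 2 the 3 stood beside 37.8% of all probe sets, without wild-type array 1 the 2 beside 12%, and without knockout array 1 the 1, Cd68, beside 0.981%. With the replicate block there were 2, Cd68 (unadjusted limma p of 0.0152) and Ctss (0.0271), each with an adjusted p of 0.797, beside 3.97% of all probe sets. The labels do not say that a number marks a shared animal or day, and deviations of same-numbered arrays correlated at 0.15. Over all probe sets, 2 passed the adjusted threshold with a filter at 6, with quantile normalization, with centred medians and with plain probe sets, and 0 with any single array left out. The median of the members lay between -0.058 and 0.24 with single arrays left out.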

Other observations

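Some macrophage genes were highest on knockout array 2, and these were chosen after their values were seen. Gpnmb, a transmembrane glycoprotein of lipid-laden and phagocytic macrophages, read 6.40 on knockout array 2 and 2.31 on each of the others in 1 of its 2 probe sets, and 2.30 on all arrays in the other. Clec7a, the beta-glucan receptor dectin-1, read 5.71 and 6.41 on the wild-type and 5.35 and 7.52 on the knockout arrays. Ms4a7 read 6.22, 5.81, 6.07 and 7.52 in the same order of arrays. Lyz2, a lysozyme of myeloid cells, read 10.45, 9.87, 9.94 and 10.99, and Mpeg1 8.51, 8.34, 8.38 and 9.26. In each of them the genotypes overlapped, and the values describe 1 array. Other measured genes of the list of other macrophage markers did not share this, and they too were named after their values were seen. Pf4, Mertk, Aif1, Cd14 and Lyve1 were highest on wild-type array 1 and Cx3cr1 on wild-type array 2. Fcgr1 was highest on knockout array 2.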
